A study of Mus musculus with 8 samples.

Results

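Folate carries one-carbon units, and the genes described here are 8 genes of the folate cycle: the folate transporter Slc19a1, the cytosolic enzymes Mthfd1, Shmt1 and Tyms, and the mitochondrial enzymes Shmt2, Mthfd2, Mthfd1l and Aldh1l2. They were chosen by name, as the gene bodies of the longest protein-coding transcript by spliced length in GENCODE M21, and are 8 of 16263 protein-coding genes with at least 4 exons. The measurement was H3K36me3, a histone H3 methylation deposited over gene bodies as they are transcribed, by chromatin immunoprecipitation followed by sequencing (ChIP–seq). The cells were i4F MEFs, mouse embryonic fibroblasts with a doxycycline-inducible cassette of OCT4, SOX2, KLF4 and MYC (OSKM), all from 1 embryo (Clone 1, embryonic day 13.5) and collected after 72 h in iPSC medium. The study picked this line for its efficient reprogramming, so the cells stand for 1 line. MEF had neither doxycycline nor added vitamin B12, MEF B12 had 2 µM vitamin B12, OSKM had doxycycline, and OSKM B12 had both. The doxycycline dose is 1 µg/ml in the labels and 1 mg/ml in the study's methods. Since each condition was sequenced as a single H3K36me3 library with its input, the spread between cultures is unknown and nothing was tested. The antibody is written H3K3me3 in the labels, and the libraries are called H3K36me3 there.

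Folate reaches the cell through carriers such as the one encoded by Slc19a1 and takes up a one-carbon unit from serine, in the cytosol through SHMT1 and in mitochondria through SHMT2. The unit is oxidized in mitochondria by MTHFD2 and released as formate by MTHFD1L, and MTHFD1 loads formate onto folate again in the cytosol. TYMS spends it on thymidylate, and ALDH1L2 burns it to carbon dioxide in mitochondria. The methyl form of folate hands its unit to homocysteine through methionine synthase, which needs vitamin B12, and the methionine made there feeds S-adenosylmethionine, the methyl donor of histone methylation.

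The deposited values were broad peaks called in each library against its own input. The covered share of a gene is the percentage of its body that lay in peaks. The density is the sum over its bases in peaks of the pileup (extended fragments over a base) per 1000000 tags, divided by the length of the body, so that genes can be compared per base. Bases outside peaks count as 0, and a density therefore moves with how many bases were called. In these bulk libraries, loss of the mark in some cells cannot be told apart from less of it in every cell. Marked genes are the 8779 genes with at least 10% of the body covered in at least 1 library. All 8 folate genes are among them, but Mthfd1l passed only through OSKM B12. Depth ranged from 29046913 to 33399267 H3K36me3 tags, with the highest number in OSKM. Of the fibroblast markers, 8 of 8 were covered over at least 34.0% of the body in every library. The epithelial markers Cdh1, Epcam, Krt8 and Krt18 had no peak in any library. The pluripotency marker Nanog had none either, and of the 5 genes on that list only Zfp42 had a peak, over 2.43% of its body in OSKM. Pecam1 and Cdh5 of the endothelial list and Ptprc and Hbb-bs of the blood list were without a peak, Kdr reached 0.903% in OSKM B12 and Spi1 12.3% in MEF B12. Cd68, also on the blood list, was covered over 76.0% to 100% of its body by a peak that also lay over Eif4a1.

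The following sequences show where peaks were absent, lost or kept. They were read from RefSeq's promoter table and genome (GRCm38.p6, the assembly of mm10) and run 5′ to 3′ on the strand of the gene. The first is the Tyms promoter, which lay outside the peaks of all 4 libraries, 250 bases before to 50 after the annotated start, chr5:30073576-30073875, minus strand, with the E-box CACGTG in capitals. The others are windows of 300 bases around a coding exon, with the exon in capitals and the introns in lower case. Shmt2 exon 7 of 12 (chr10:127519041-127519340, minus strand) lay in a peak in MEF B12, OSKM and OSKM B12 and outside the peaks of MEF. Aldh1l2 exon 7 of 23 (chr10:83515966-83516265, minus strand) lay in a peak in MEF and MEF B12 and outside the peaks of OSKM and OSKM B12. In both genes the nearest such peaks came closer to the window than 1 fragment length (288 to 292 bases). They reached 127518975 in MEF for Shmt2, and 83515849 in OSKM and 83515889 in OSKM B12 for Aldh1l2. Being outside the peaks here thus rests on where peak edges were called. Mthfd1l exon 7 of 28 (chr10:3989780-3990079, plus strand) lay in a peak in all 4 libraries.
Tyms promoter: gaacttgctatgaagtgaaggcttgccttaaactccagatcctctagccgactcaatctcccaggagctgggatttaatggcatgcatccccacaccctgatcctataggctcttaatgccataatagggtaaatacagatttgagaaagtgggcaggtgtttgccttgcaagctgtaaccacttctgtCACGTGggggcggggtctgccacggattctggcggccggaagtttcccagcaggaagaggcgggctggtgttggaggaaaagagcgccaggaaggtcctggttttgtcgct
Shmt2 exon 7: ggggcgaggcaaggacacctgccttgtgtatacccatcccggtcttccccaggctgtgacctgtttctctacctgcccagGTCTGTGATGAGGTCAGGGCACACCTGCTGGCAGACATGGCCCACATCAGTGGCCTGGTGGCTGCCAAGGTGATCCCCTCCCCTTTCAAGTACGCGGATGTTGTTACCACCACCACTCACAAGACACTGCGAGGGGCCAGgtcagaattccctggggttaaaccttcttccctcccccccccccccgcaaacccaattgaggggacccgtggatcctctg
Aldh1l2 exon 7: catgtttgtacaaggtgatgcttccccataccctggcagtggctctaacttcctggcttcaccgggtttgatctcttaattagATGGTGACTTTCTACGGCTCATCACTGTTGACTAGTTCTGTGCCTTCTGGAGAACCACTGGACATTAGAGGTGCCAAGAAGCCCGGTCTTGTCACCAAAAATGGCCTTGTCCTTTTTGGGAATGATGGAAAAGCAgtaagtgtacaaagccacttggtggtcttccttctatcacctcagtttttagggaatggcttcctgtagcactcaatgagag
Mthfd1l exon 7: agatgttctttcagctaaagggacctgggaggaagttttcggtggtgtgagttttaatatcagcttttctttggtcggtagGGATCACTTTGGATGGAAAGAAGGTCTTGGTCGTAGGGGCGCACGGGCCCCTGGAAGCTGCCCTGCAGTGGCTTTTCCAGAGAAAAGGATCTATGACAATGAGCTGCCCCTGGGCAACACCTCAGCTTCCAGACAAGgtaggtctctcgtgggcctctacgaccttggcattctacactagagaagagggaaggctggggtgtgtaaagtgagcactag

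Promoter sequences were listed for 7 of the 8 genes, with 2 for Slc19a1. Aldh1l2 had no entry. None of the 8 promoter windows was touched by a peak in any library. Few marked genes had their start in a peak, 1.59% to 2.18% in each library. This share counts the transcript start itself and not the promoter window, so the measures differ. An E-box, the palindrome CACGTG that MYC and related factors bind, was found in the Tyms window only, 61 to 56 bases before the start. It was present in 7.15% of the 32851 promoters in the table. TGATGNAA, the core of the amino acid response element to which ATF4 binds, was searched on both strands and was in none of the 8 windows, against 3.97% of all promoters.

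**Figure D1:**
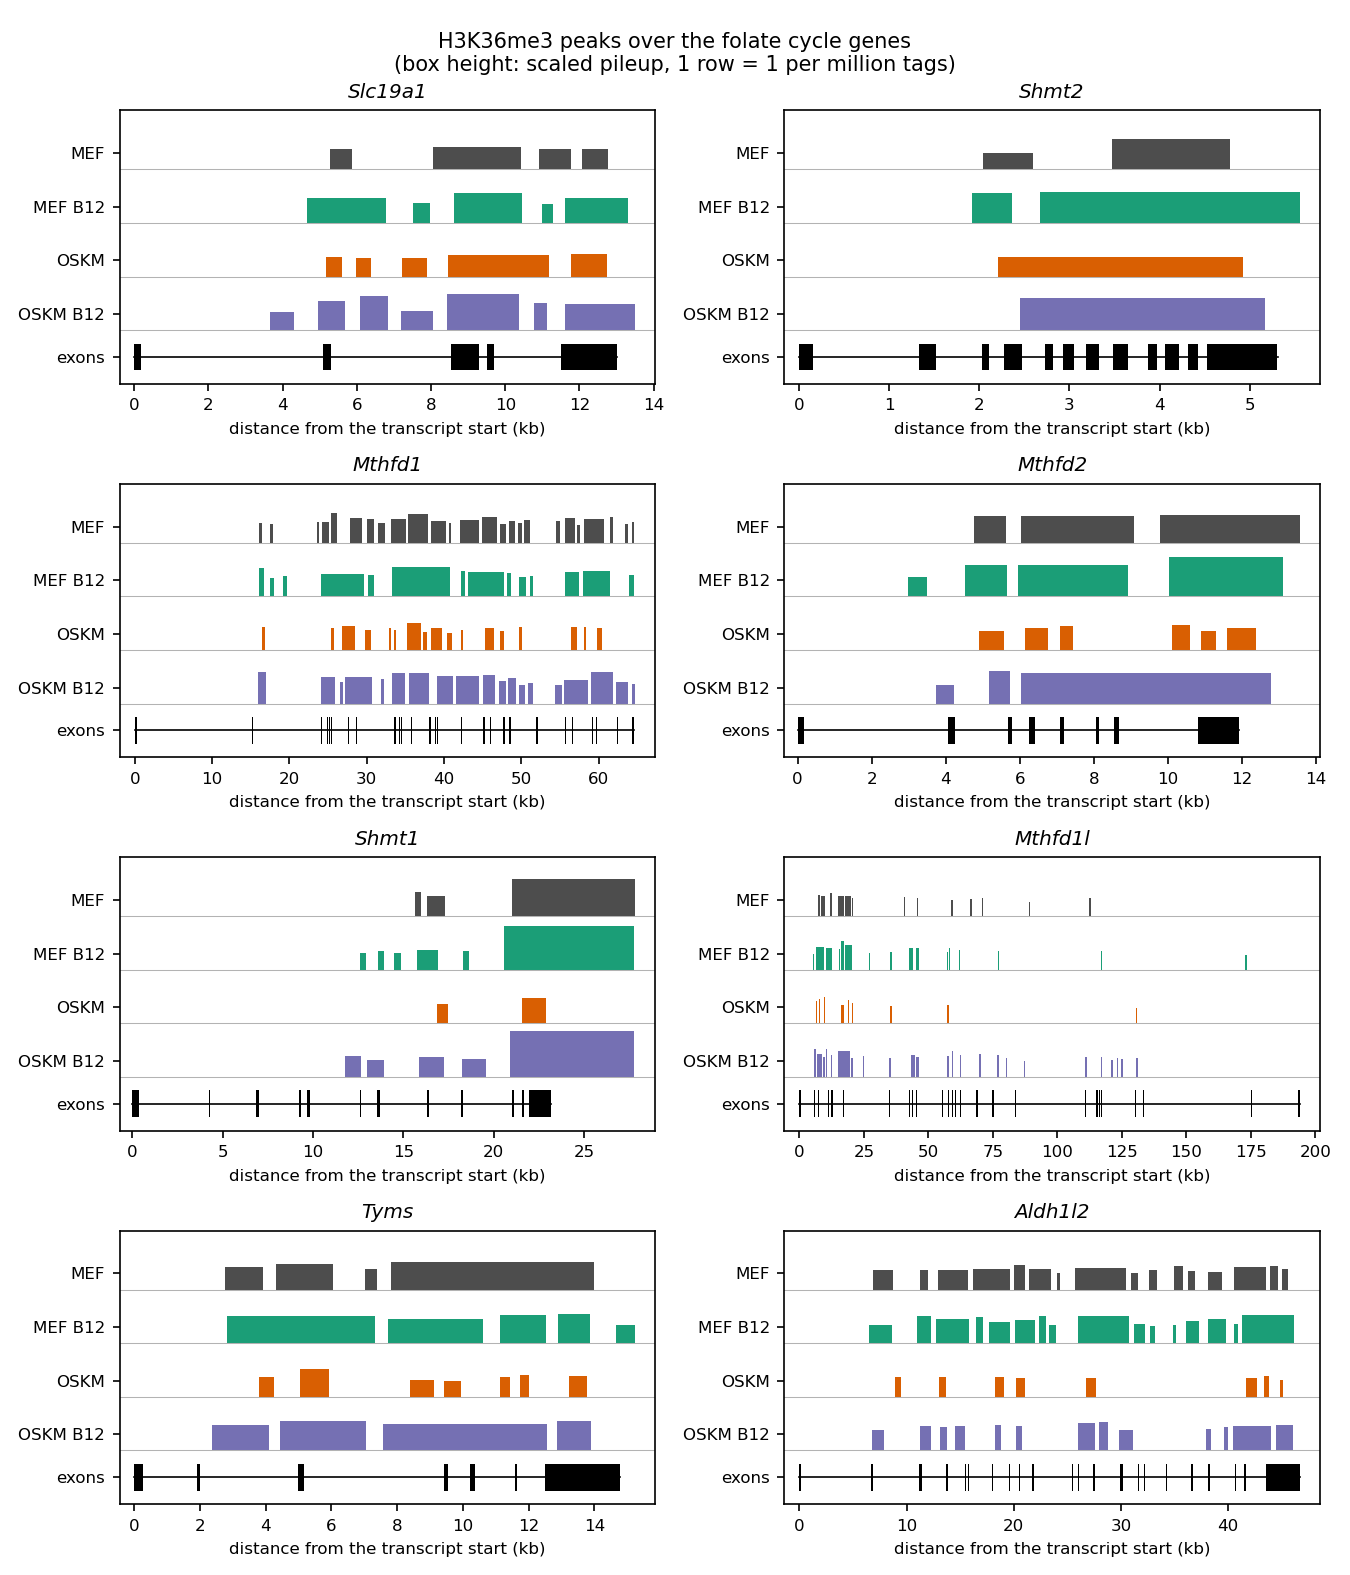
H3K36me3 peaks over the 8 folate genes, drawn by distance from the transcript start (kb), with 1 row per library and exons as black boxes. Box height is the pileup per 1000000 tags, each gene has its own distance scale, and the single Shmt2 peak of OSKM spans the gap between the MEF peaks.

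The folate genes ranged widely in how much H3K36me3 they carried. In MEF, Tyms had the largest covered share (63.7%) and Mthfd1l the smallest (6.49%), and the density ran from 0.328 in Tyms to 0.0248 in Mthfd1l. Tyms was above 55.7% of the marked genes in MEF density and Mthfd1l above 2.39%. The median covered share of the 8 genes was 21.8% in OSKM, against 37.5% in MEF, 50.9% in MEF B12 and 48.7% in OSKM B12. The levels are shown in the plot of covered share and density by library.

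**Figure D2:**
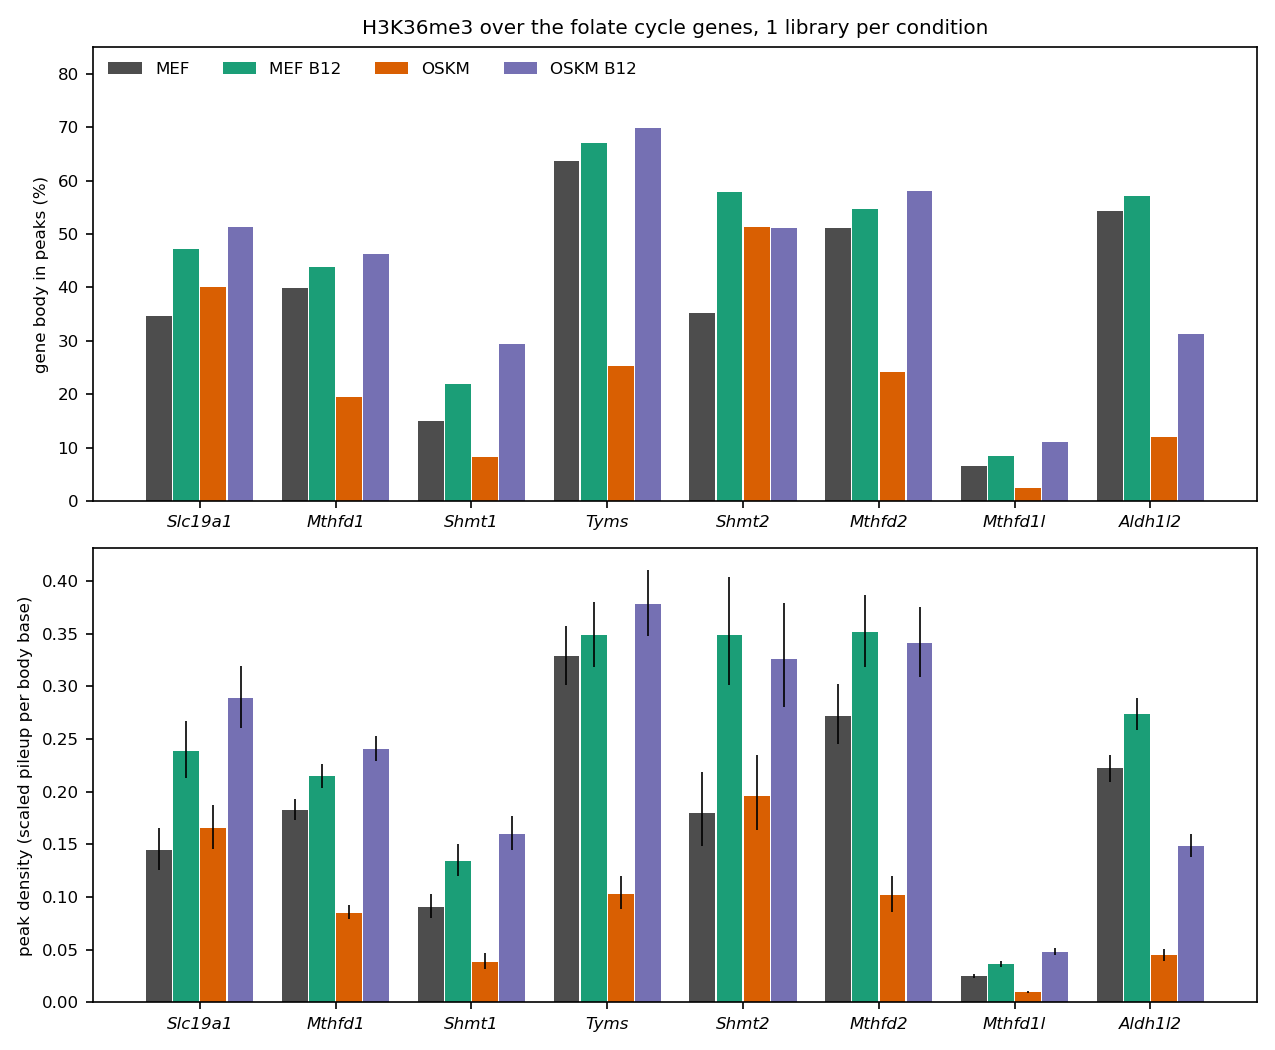
Covered share of the gene body (top, %) and peak density (bottom, pileup per 1000000 tags per base of the body) of the 8 folate genes in the 4 libraries. Bars are single libraries and error bars are 95% Poisson intervals that cover counting error only; OSKM is the lowest bar for every gene except Slc19a1 and Shmt2.

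From MEF to OSKM, 6 of the 8 folate genes had a lower covered share and density, and Slc19a1 and Shmt2 had higher ones, both with densities that turn lower over another gene model or measure, given with each gene. The median log2 density change, with 0.05 added to both densities, was −0.73, beside −0.71 over all marked genes. Density was lower by at least 1.5-fold on this scale for 5 of the 8 genes, and for 69.2% of the marked genes. The whole OSKM library stood low, with 97.9% of the marked genes at a lower density than in MEF and a mean covered share of 33.9% over them, against 49.7% in MEF. The part of this in the values of the folate genes was not tested. Mthfd1l missed the 1.5-fold mark because of the added 0.05: its plain ratio was 0.393, and 6 of the 8 plain ratios were under the mark. Without Mthfd1l the median was −0.78. The median of the 8 genes thus lay close to that of the marked genes. Only 2 of the 8 genes, however, lay between the quartiles of the marked genes, −0.93 and −0.54. What set the 8 genes apart from each other was the range, from −1.52 in Aldh1l2 to 0.14 in Slc19a1. The mitochondrial genes had a median of −0.71 and the cytosolic genes one of −0.78. The range is drawn in the plot of changes among marked genes.

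**Figure D3:**
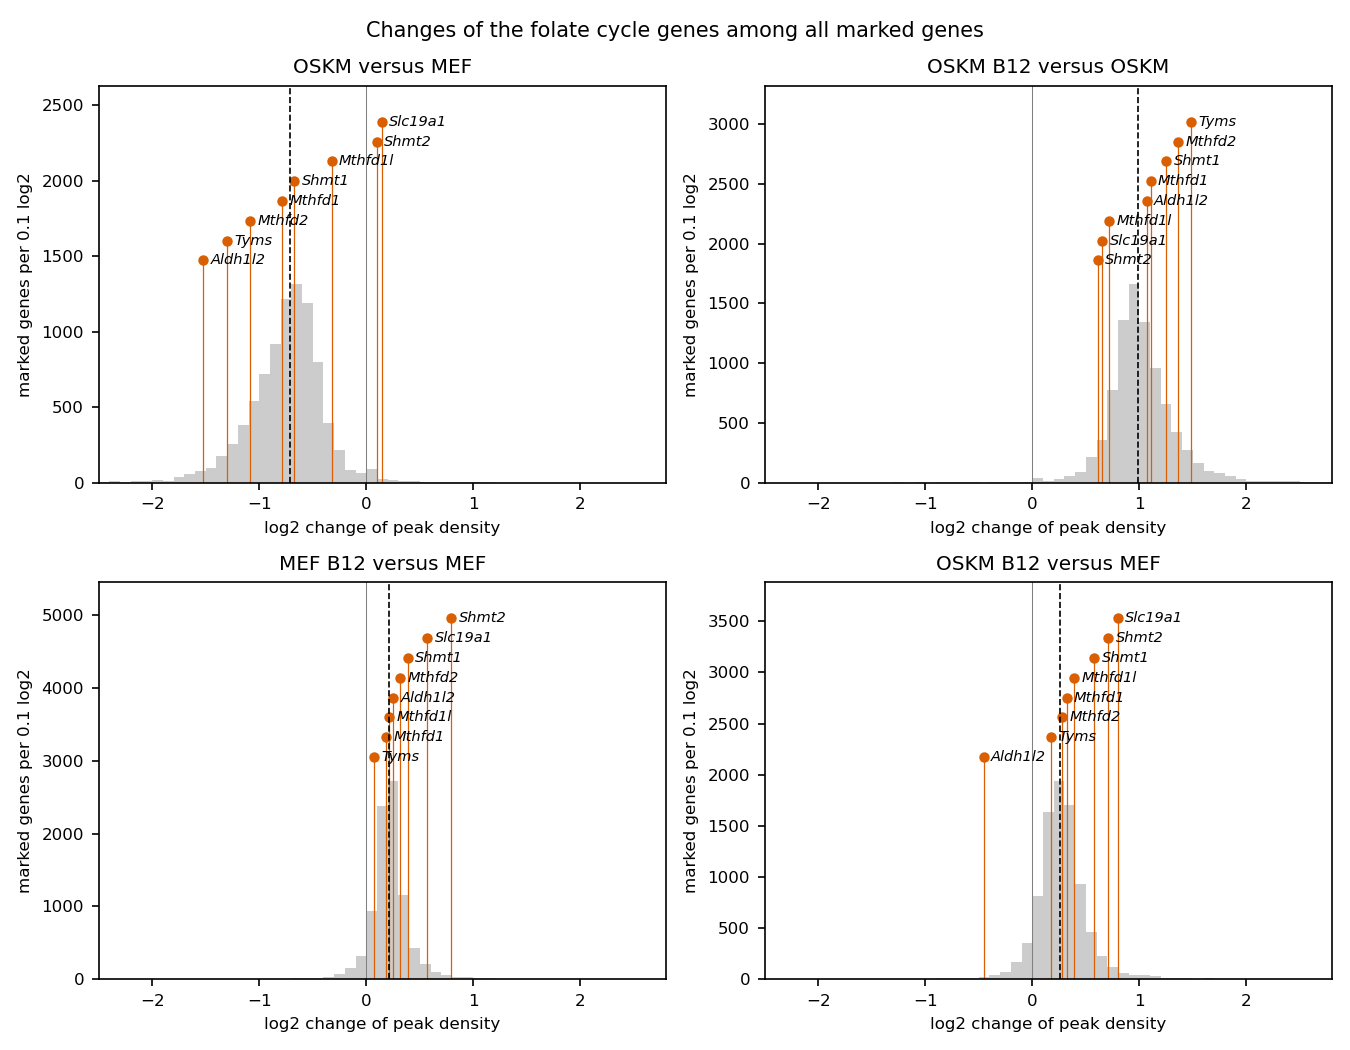
Log2 change of peak density in 4 comparisons (x axis, 0.05 added to both densities). Grey bars count the marked genes in steps of 0.1, the dashed line is their median, and each orange point is a folate gene, stacked in order of its change with no meaning in its height. In OSKM versus MEF, Aldh1l2 and Tyms lie in the lower tail while Shmt2 and Slc19a1 lie in the upper tail.

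Slc19a1 (ENSMUSG00000001436, chromosome 10, 77033268 to 77046268, plus strand, 5 exons) encodes the reduced folate carrier. Its covered share was 34.7% in MEF and 47.1% in MEF B12, against 40.1% in OSKM and 51.3% in OSKM B12. The densities were 0.145, 0.239, 0.165 and 0.289 for MEF, MEF B12, OSKM and OSKM B12, and densities are given in this order from here on. OSKM thus lay just above MEF, and both libraries with vitamin B12 lay above both without it. The ratio of OSKM to MEF was 1.14 (95% counting interval 0.946 to 1.38), which includes no change, and the log2 change was above that of 99.1% of the marked genes. The peaks began between 3.67 kb and 5.28 kb from the start, in intron 1 or exon 2. The direction from MEF to OSKM depends on the gene model: over the whole annotated gene of 28762 bases the log2 change was −0.17, and over the principal transcript, of 17220 bases, it was −0.09.

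Mthfd1 (ENSMUSG00000021048, chromosome 12, 76255298 to 76319803, plus strand, 28 exons) encodes the cytosolic enzyme with synthetase, cyclohydrolase and dehydrogenase activities. Peaks covered 19.4% of its body in OSKM, against 39.9% in MEF, 43.8% in MEF B12 and 46.3% in OSKM B12. The density was 0.183, 0.214, 0.0852 and 0.241. OSKM was the lowest library and the other 3 lay close together. The OSKM to MEF ratio was 0.466 (0.423 to 0.513), and with a log2 change of −0.78 the gene lay near the median of the marked genes. In all 4 libraries the first peak began within intron 2, between 15889 and 16439 bases from the start. In MEF the body was covered by 25 peaks and in MEF B12 by 14, the longest of them 7518 bases. Peaks touched 21, 24, 11 and 23 of the 28 exons. The antisense gene Gm34868 overlaps 29.6% of the body, and the mark over it cannot be assigned to either strand.

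Shmt1 (ENSMUSG00000020534, chromosome 11, 60788104 to 60811265, minus strand, 12 exons) encodes the cytosolic serine hydroxymethyltransferase. Its covered share was 8.22% in OSKM, 15.0% in MEF, 21.9% in MEF B12 and 29.3% in OSKM B12. The densities were 0.0908, 0.134, 0.0383 and 0.160. OSKM was lowest and OSKM B12 highest. OSKM was at 0.422 of MEF (0.331 to 0.534). The mark was confined to the 3′ part of the gene, with the first 2 of 5 equal parts of the body free of peaks in all 4 libraries. In MEF, MEF B12 and OSKM B12 the last peak, 6830 to 7174 bases long, ran more than 4.6 kb past the gene end into Smcr8, a gene on the opposite strand whose end overlaps that of Shmt1 by 184 bases. In OSKM the last peak was 1295 bases long and ended inside exon 12, before the gene end. Which of these genes carries the shared 3′ peak cannot be told apart from a peak list.

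Tyms (ENSMUSG00000025747, chromosome 5, 30058827 to 30073617, minus strand, 7 exons) encodes thymidylate synthase. Peaks covered 63.7% of the body in MEF and 67.0% in MEF B12 but 25.2% in OSKM, and 69.8% in OSKM B12. The densities were 0.328, 0.348, 0.103 and 0.378. The OSKM library stood apart below 3 libraries that lay close together. The OSKM to MEF ratio was 0.315 (0.264 to 0.373), and only 5.83% of the marked genes had a lower log2 change. In MEF the largest peak ran for 6188 bases from intron 3 to exon 7. In OSKM the same stretch held 5 separate peaks of 288 to 754 bases. Of the bases covered in MEF, 35.8% were covered in OSKM and 90.8% in OSKM B12.

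Shmt2 (ENSMUSG00000025403, chromosome 10, 127517139 to 127522444, minus strand, 12 exons) encodes the mitochondrial serine hydroxymethyltransferase, and at 5306 bases it is the shortest of the 8 bodies. Its covered share was 35.1% in MEF, and it was 57.9% with vitamin B12, 51.2% with doxycycline and 51.1% with both. The densities were 0.180, 0.349, 0.196 and 0.326. By density OSKM was close to MEF and both libraries with vitamin B12 were higher, whereas by covered share MEF alone was low. The OSKM to MEF ratio was 1.09 (0.832 to 1.42), from an estimated 121 and 107 fragments, and the log2 change was above that of 99.0% of the marked genes. MEF had 2 peaks separated by 876 bases, and it is in this gap that exon 7, printed above, lies. OSKM had 1 peak of 2719 bases that spanned the gap. Its pileup was 0.383 per 1000000 tags, against 0.597 in the longer MEF peak. Over the 1313 bases in a peak in all 4 libraries, OSKM was at 0.642 of MEF, the lowest ratio of the 8 genes. The higher density in OSKM went with a longer called region of lower mean pileup. When peaks were required to reach a −log10 q of 5, none was left in OSKM and the log2 change was −1.98.

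Mthfd2 (ENSMUSG00000005667, chromosome 6, 83305691 to 83317606, minus strand, 8 exons) encodes the mitochondrial methylenetetrahydrofolate dehydrogenase and cyclohydrolase. It was covered over 24.1% of its body in OSKM and over 51.1% in MEF, 54.7% in MEF B12 and 58.1% in OSKM B12, with densities of 0.272, 0.351, 0.102 and 0.341. OSKM was the lowest and the libraries with vitamin B12 the highest. The OSKM to MEF ratio was 0.374 (0.306 to 0.457). The 6 OSKM peaks were 366 to 788 bases long, and 100% of their bases within the body lay inside the MEF peaks, which were 881 to 3778 bases long. The last MEF peak ran 1641 bases past the gene end and reached the 3′ end of Slc4a5, which lies 745 bases away on the opposite strand. The same held in MEF B12 and OSKM B12, while the OSKM peak ended 472 bases past the end.

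Mthfd1l (ENSMUSG00000040675, chromosome 10, 3973131 to 4167081, plus strand, 28 exons) encodes the mitochondrial formate-tetrahydrofolate ligase and is the longest of the 8 genes, at 194 kb. Peaks covered 2.49% of its body in OSKM, 6.49% in MEF, 8.38% in MEF B12 and 11.0% in OSKM B12. The densities were 0.0248, 0.0366, 0.00974 and 0.0481, the lowest of the 8 genes in every library. OSKM was at 0.393 of MEF (0.334 to 0.461). The mark lay near the start rather than the end. The first 20% of the body was covered over 22.0% in MEF, 9.70% in OSKM, 28.8% in MEF B12 and 28.5% in OSKM B12. The last 20% was without a peak in 3 libraries and at 1.27% in MEF B12. Of the 708 marked genes of at least 100 kb, 12.1% to 13.7% in each library were covered more over the first 20% than over the last, and over all marked genes this share was 5.10% to 5.65%. Among the folate genes it was 1 of 8 in every library.

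**Figure D4:**
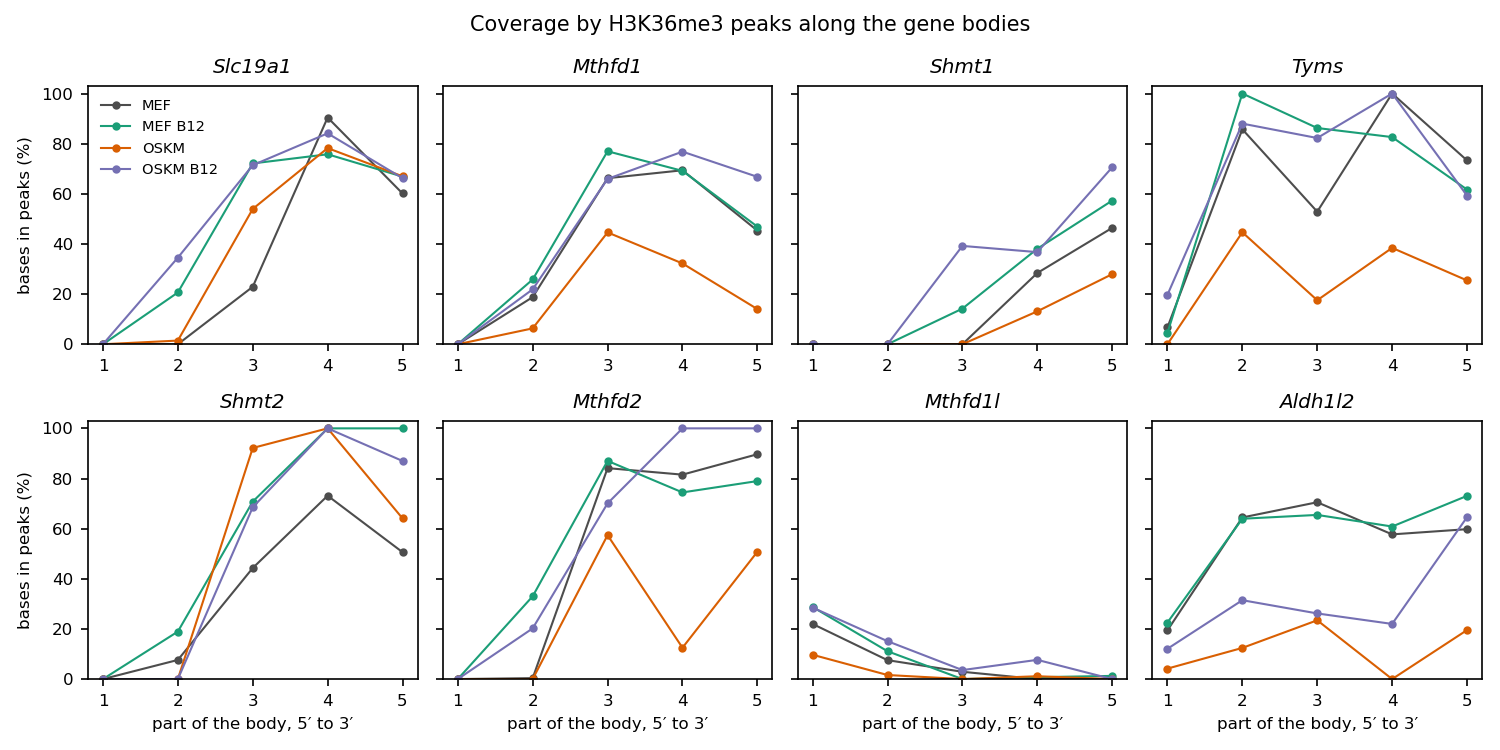
Percentage of bases in peaks in 5 equal parts of each gene body from 5′ to 3′, with 1 line per library. Part 1 has no coverage in any library for Mthfd1, Shmt1, Slc19a1, Mthfd2 and Shmt2, and it has the highest coverage for Mthfd1l, where it falls from 22.0% in part 1 to 0 in part 5 in MEF.

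Aldh1l2 (ENSMUSG00000020256, chromosome 10, 83487450 to 83534140, minus strand, 23 exons) encodes the mitochondrial 10-formyltetrahydrofolate dehydrogenase. Its covered share was 11.9% in OSKM and 31.3% in OSKM B12, against 54.4% in MEF and 57.2% in MEF B12. The densities were 0.222, 0.273, 0.0446 and 0.149. Both libraries with doxycycline lay below both without it, which holds for none of the 7 other genes. Among marked genes of the wider pathway list described below, Slc25a32 and Gcsh had the same order. Their OSKM B12 densities were just under MEF, at 0.986 (0.858 to 1.13) and 0.986 (0.848 to 1.14), intervals that include no change. For Aldh1l2, OSKM was at 0.201 of MEF (0.174 to 0.231), and the log2 change of −1.52 was lower than that of 97.6% of the marked genes. Its peaks were weak, with a highest −log10 q of 3.65 in MEF and 2.32 in OSKM. When peaks were required to reach a −log10 q of 5, none was left in any library and the log2 change was 0. Of the 23 exons, peaks touched 17 in MEF and 20 in MEF B12, but 3 in OSKM and 13 in OSKM B12. The bases covered in MEF were covered again over 18.0% in OSKM and 45.8% in OSKM B12. In the 7 other genes the OSKM B12 share ran from 65.1% in Mthfd1l to 92.9% in Mthfd2. Exon 7, whose sequence is shown above, is one of the stretches covered in both MEF libraries and in neither library with doxycycline. The last 20% of the body was covered over 19.5% in OSKM and 64.6% in OSKM B12, against 59.8% in MEF and 73.1% in MEF B12.

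To separate how much was called from how high the pileup was, the bases in a peak in all 4 libraries were compared. They made up 1.03% of the body in Mthfd1l and 24.7% in Shmt2. Over these bases OSKM was at 0.905 of MEF in Mthfd1, 0.701 in Shmt1, 0.782 in Tyms, 1.01 in Slc19a1, 1.03 in Mthfd1l, 0.799 in Mthfd2, 0.642 in Shmt2 and 0.866 in Aldh1l2. The ratio over all marked genes was 0.754. None of the 8 genes was lower by 1.5-fold on the log2 scale with 0.05 added, although the plain ratio of Shmt2 was past it. The low densities in OSKM went with fewer called bases more than with a lower pileup on the bases that stayed called. Aldh1l2 had the lowest ratio by density and Shmt2 the lowest over shared bases, as the plot of both ratios shows. These bases had to pass the cut-off in OSKM too, which leaves out those no longer called there. Each peak's pileup is a mean over the whole peak, so the value on shared bases also carries the rest of the peak, and peaks of unequal length, such as those of Shmt2, are compared by unequal means.

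**Figure D5:**
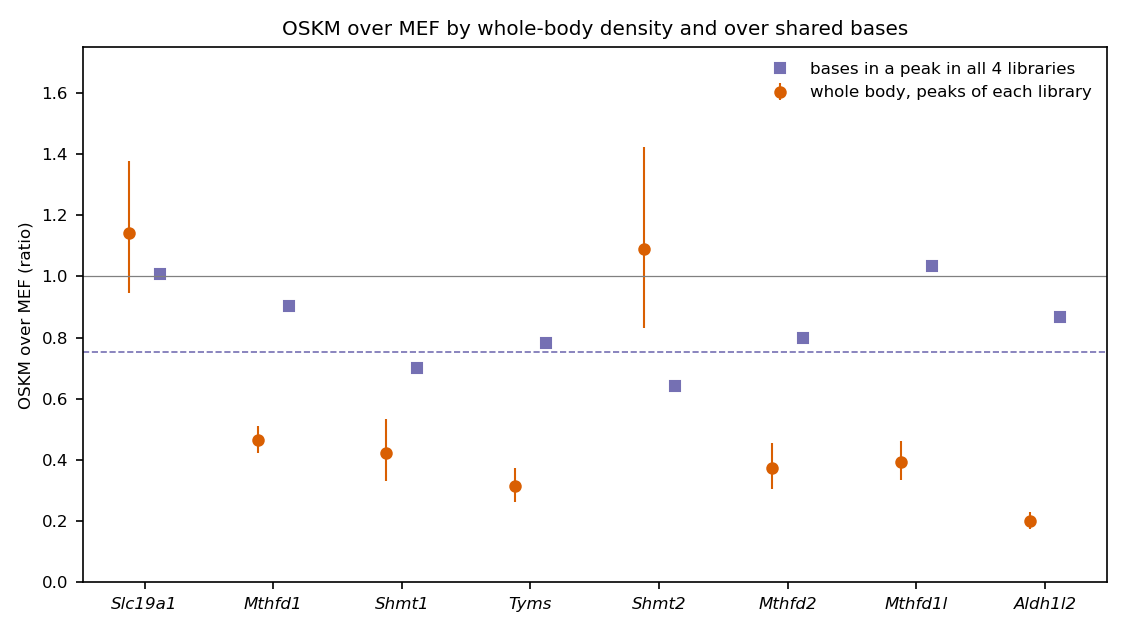
Ratio of OSKM to MEF for each folate gene by density over the whole body (orange, with 95% counting intervals) and by mean pileup per 1000000 tags over bases in a peak in all 4 libraries (purple squares). The dashed line is the second ratio over all marked genes, 0.754, and Shmt2 is the only gene whose square lies more than 0.1 below it.

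Adding vitamin B12 during OSKM expression went with a higher density in all 8 genes. The median log2 change from OSKM to OSKM B12 was 1.09, beside 0.98 over marked genes, and 1.10 without Mthfd1l. Density was higher by at least 1.5-fold for 8 of 8 genes and for 95.3% of the marked genes, so the count is near that of the background. The count was 6 without division by tags and with fold enrichment in place of pileup, as Slc19a1 (0.52 and 0.40) and Shmt2 (0.47 and 0.24) then missed the fold, and it was also 6 with peaks of a −log10 q of 5 or more. By density over the whole body, the largest log2 changes were those of Tyms (1.48), Mthfd2 (1.36) and Shmt1 (1.25), above 93.8%, 89.6% and 83.0% of the marked genes. The smallest were those of Shmt2 (0.61) and Slc19a1 (0.65), the genes that had been no lower in OSKM than in MEF, and only 5.51% and 6.81% of the marked genes changed less. As plain ratios, Shmt2 was at 1.66 (1.31 to 2.11) and Mthfd1l at 4.93 (4.26 to 5.75). In Shmt2 the covered share was nearly equal in both libraries and the pileup of the single peak went from 0.383 to 0.638 per 1000000 tags. Over the bases in a peak in all 4 libraries, the order of the genes differed. There OSKM B12 was at 1.76 of OSKM in Shmt1, 1.67 in Shmt2, 1.52 in Slc19a1 and 1.42 in Mthfd2. It was at 1.33 in Tyms, 1.31 in Aldh1l2, 1.23 in Mthfd1 and 1.17 in Mthfd1l, beside 1.57 over all marked genes. Both comparisons use the same OSKM library, so they are not independent of each other. By density, both libraries with vitamin B12 lay above both without it in all of the genes but Aldh1l2. The share of marked genes with this order was not counted, so the order is not shown to be particular to the folate genes. Of the marked genes, only 8.26% were lower in OSKM B12 than in MEF. Only 7.56% were lower in MEF B12 than in MEF, and 0.308% in OSKM B12 than in OSKM.

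In cells without doxycycline, the 8 densities were higher in MEF B12 than in MEF, with a median log2 change of 0.28 (0.32 without Mthfd1l), beside 0.21 over marked genes. Only 7.56% of the marked genes were lower in MEF B12, so this direction is that of the background. Without division by tags the median over marked genes was 0.071, and Tyms was then lower in MEF B12, at −0.070. Density was higher by at least 1.5-fold in 1 folate gene, Shmt2 (log2 change 0.79, ratio 1.94, 1.52 to 2.48), and in 3.47% of the marked genes. It was lower by at least 1.5-fold in 0 folate genes and 0.513% of the marked genes. Slc19a1 followed with a log2 change of 0.57 (ratio 1.65, 1.38 to 1.98), just under 1.5-fold on the log2 scale but past it as a plain ratio. The smallest change was that of Tyms, 0.074, with a ratio of 1.06 whose counting interval of 0.938 to 1.20 includes 1. For Shmt2 the higher density went with more called bases: over the shared bases MEF B12 was at 1.01 of MEF, while the covered share went from 35.1% to 57.9%. The 1.01 compares means of whole peaks, 1313 bases long in MEF and 2885 in MEF B12. The pileup on the shared bases alone is not known. Whether the difference with vitamin B12 was larger with doxycycline than without it was not tested.

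Set against untreated MEF, the library with doxycycline and vitamin B12 had a higher density for 7 of the 8 genes, and Aldh1l2 was lower. Of the marked genes, 8.26% were lower, so the count is near that of the background. The median log2 change was 0.36 (0.32 without Mthfd1l), beside 0.26 over marked genes. Slc19a1 (0.80) and Shmt2 (0.71) were higher by at least 1.5-fold, 2 of the 8 genes, as were 7.06% of the marked genes. As plain ratios, 4 of the 8 were past 1.5-fold, with Shmt1 (1.76) and Mthfd1l (1.94) besides. Lower by at least 1.5-fold were 0 folate genes and 0.661% of the marked genes. Aldh1l2 had a log2 change of −0.45, a ratio of 0.669 (0.608 to 0.736), and only 0.877% of the marked genes had a lower change. Over its shared bases, however, Aldh1l2 in OSKM B12 was at 1.13 of MEF, and the lower density went with a smaller called area.

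A wider list of 26 genes of folate transport, folate interconversion, glycine cleavage, purine synthesis, serine synthesis and the link to vitamin B12 was described in the same way. Of these, 19 were marked. Ftcd, Dmgdh and Folr1 had no peak in any library, Gldc, Mthfd2l and Folr2 reached less than 10% of the body, and Mthfs has under 4 exons. From MEF to OSKM, density was lower for 18 of the 19 genes, 11 of them by at least 1.5-fold (69.2% of the marked genes), and the median log2 change was −0.70. The exception was Slc46a1, the proton-coupled folate transporter, with a log2 change of 0.11 from a covered share of 3.54% to 4.61%. From OSKM to OSKM B12, 19 of 19 were higher by at least 1.5-fold (95.3% of the marked genes).

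Methionine synthase (Mtr), an enzyme that uses vitamin B12, was covered over 39.5% of its body in OSKM, against 74.1% in MEF, 79.1% in MEF B12 and 78.9% in OSKM B12. For Mtrr, which reactivates it, these shares were 40.5%, 50.8%, 72.7% and 78.9%. The purine enzymes Gart and Atic, which take formyl units from folate, held the mark over 84.2% and 93.2% of the body in MEF and 69.9% and 66.9% in OSKM. Fpgs, which adds the glutamates that retain folate in the cell, was covered over 72.9% in MEF and 57.9% in OSKM. Ggh, which removes them, went from 5.83% to no peak.

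Aldh1l1, the cytosolic counterpart of Aldh1l2, was covered over 6.02% in OSKM, against 27.7% in MEF, 23.3% in MEF B12 and 26.9% in OSKM B12. Like Aldh1l2 it was low in OSKM, with a log2 change of −1.16, but its OSKM B12 density was at 1.06 of MEF. In the glycine cleavage system, Gcsh went from 57.4% in MEF to 29.8% in OSKM. Amt was covered over 23.5% in MEF, had no peak in OSKM and was covered over 22.5% in OSKM B12. The mitochondrial folate carrier Slc25a32 was covered over 41.4% in MEF and 13.7% in OSKM, Mtfmt over 83.0% and 58.9%, and Sardh over 33.6% and 9.29%. In the supply of serine, Phgdh went from 71.8% to 34.8%, Psat1 from 51.0% to 25.1%, Psph from 25.1% to 14.9% and the mitochondrial serine transporter Sfxn1 from 43.9% to 33.8%. In MEF B12 against MEF, 1 of the 19 genes was lower by at least 1.5-fold, Amt (0.513% of the marked genes), and 2 were higher (3.47%), Slc46a1 with a log2 change of 1.28 and Ggh with 0.72. In OSKM B12 against MEF, 3 were higher by at least 1.5-fold (7.06% of the marked genes), among them Slc46a1 (1.26) and Mtrr (0.73). Slc46a1 and Ggh reached 10% of the body only in the libraries with vitamin B12, so these genes were kept as marked through the libraries in which they were high.

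The marked genes whose densities in the 4 libraries were closest to the median profile of the 8 folate genes (0.182, 0.256, 0.0932 and 0.264) were Tbcd, Myl12a and Josd1, at root-sum-square distances of 0.062, 0.085 and 0.087 on the log2 scale over the 4 libraries.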

How the data were processed

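The data were 8 ChIP–seq libraries, 1 H3K36me3 and 1 input library for each of 4 conditions, grouped by their labels. The authors aligned reads with Bowtie version 0.12.9 to mm10, merged runs and removed duplicates. Their broad peaks come from MACS2 (version 2.2.6), run on each library against its input at q-value cut-offs of 0.05 and 0.1, with an effective genome size above the length of the mouse assembly per the file headers. Tool versions are from the submitters' processing notes. Pileup is deposited as a signal, averaged over the bases of a peak and not scaled by the caller. The deposited fold enrichment is a ratio over the local input. The authors' files hold p-value and q-value as −log10. Each list stems from a single library.

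From these files, covered shares, densities, pileups over shared bases and peak positions were derived in Python 3.11 (numpy 2.4.6, scipy 1.17.1; figures with matplotlib 3.10.9) for the longest protein-coding transcript (by spliced length) of each GENCODE M21 gene, on chromosomes 1 to 19, X and Y. Peaks on unplaced scaffolds, 1 to 16 per list, were left out. Log2 changes used a pseudocount of 0.05, which understates the change of low genes. A gene was called past the fold at 1.5-fold. Fragments in a gene were estimated as pileup times bases divided by the fragment length (288 to 292 bases). Intervals are exact Poisson intervals for densities and exact conditional intervals for ratios, at 95%, and cover counting error only. The genes named were the 8 members, the marked genes of a list of 26 pathway genes, the 3 genes nearest in profile and neighbours within 5 kb reached by a peak. Not named above were 2 neighbours on the opposite strand: Ndufa4l2, reached with Shmt2 in MEF B12, and D10Wsu102e, reached with Aldh1l2 in MEF B12 and OSKM B12. On the same strand were Gm43890, reached with Mthfd2 in MEF B12, and Gm16074, reached with Mthfd1l in all libraries but OSKM. Some genes of the pathway list are not reported here. The members and lists were chosen with earlier results of these data known. Depth sets the weakest enrichment that can be called, so a gene without a peak is one with none detectable here. The interval sums were tested on simulated data, with 500 of 500 random intervals equal to a base by base count. Alternatives were stricter peaks, equal peak numbers, other scalings, another pseudocount and other gene bodies. Reads outside peaks were not analysed here.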

Additional observations from a re-analysis of the deposited data

Results flagged for a closer look

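Shmt2 was singled out because its covered share was higher with vitamin B12 in cells without doxycycline and nearly equal in cells with it. In the latter, 1 peak of 2711 bases in OSKM B12 stood against 1 of 2719 in OSKM. The covered share was 0.151 percentage points lower in OSKM B12 than in OSKM (−0.151) and 22.8 percentage points higher in MEF B12 than in MEF. This contrast was not tested, as single libraries allow no test of it. By density, Shmt2 was higher with vitamin B12 in both, with log2 changes of 0.61 and 0.79.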

How the results depend on the processing

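Signs held for most of the 8 genes: of 72 values over the alternatives, 5 had the other sign in OSKM versus MEF, 0 in OSKM B12 versus OSKM and 3 in MEF B12 versus MEF, and 5, 2 and 1 were 0. Some of the 72 values could not differ from the main ones, so these counts overstate how far the signs were tried. OSKM B12 versus MEF was left out of these counts and of the medians below, so its signs were not tried in this way. Requiring a fold enrichment of at least 2 removed no peak of these genes. The principal transcript is the main transcript for every gene but Slc19a1. Those with the other sign were Slc19a1 (whole annotated gene, principal transcript), Mthfd1l (shared bases) and Shmt2 (−log10 q of at least 5, shared bases), then Mthfd1 (−log10 q of at least 5) and Tyms (no division by tags, shared bases). Counting peaks only from a −log10 q of 5 upward, the median log2 change was 0 in OSKM versus MEF and 0.56 in MEF B12 versus MEF, the medians relative to marked genes were 1.07 in OSKM versus MEF, −0.67 in OSKM B12 versus OSKM and 0.36 in MEF B12 versus MEF, and 2 genes in OSKM versus MEF and 4 in MEF B12 versus MEF passed 1.5-fold; few peaks of these genes are that strong. With a pseudocount of 0.01, the medians were −1.04, 1.55 and 0.39, or −0.16, 0.35 and 0.15 relative to marked genes, and 2 genes passed in MEF B12 versus MEF. Over bases in a peak in all 4 libraries, the medians were −0.24, 0.41 and 0.22, −0.12 relative to marked genes in OSKM B12 versus OSKM and 0.085 in OSKM versus MEF, and 0, 2 and 0 genes passed. With fold enrichment in place of pileup the medians were −0.65, 1.01 and 0.22, and without division by tags they were 0.97 in OSKM B12 versus OSKM and 0.16 in MEF B12 versus MEF. The principal transcript was chosen after seeing the data. No paired analysis was possible because there was 1 library in each condition. Spread between cultures is unknown, and a density moves with what was called.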
